A study of Mus musculus with 6 samples.

Results

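Complement is a set of plasma and membrane proteins that was followed here in the RNA of C0321 mammary tumors, through 9 genes fixed by name: C1qa, C1qb, C1qc, C1ra, C4b, C3, Cfb, Serping1 and C3ar1. All 9 were found by gene symbol among the 13730 genes of the deposited count table, with the transcripts of a symbol summed, and all 9 passed the filter on low counts that left 10902 genes to be tested. The 6 tumor samples came from female FVB mice that were 6 to 10 weeks old when C0321 cells in Matrigel and PBS were placed in the mammary fat pad. C0321 is a single mesenchymal, claudin-low clone of a mouse TNBC that arose from conditional loss of Lunatic Fringe on the FVB background. The paper calls the hosts immunocompetent. Whether all of their complement genes are intact was not given. Once a mass could be felt, sulindac sulfide (SS), the COX-inhibiting metabolite of sulindac, was given at 60 mg/kg by mouth every day for 14 days, and 3 tumors of this group and 3 controls were sequenced. The sample labels call the drug sulindac sulfate, and the control is called saline in one place and vehicle in another. Nothing was labelled as a litter, batch or day.

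In the classical pathway, C1q (built from the chains A, B and C, the products of C1qa, C1qb and C1qc) binds antibody complexes or dying cells, and the proteases C1r and C1s then cut C4 and C2 to form a convertase. That convertase cuts C3, the point where all routes meet, while factor B (Cfb) together with cleaved C3 makes the convertase of the alternative pathway. The C1 inhibitor (Serping1) stops C1r and C1s, and C3ar1 is the receptor for the small fragment C3a. Most plasma complement is made in liver, whereas C1q is mainly made by macrophages and dendritic cells, and C3, C4 and factor B can also be made by fibroblasts, adipocytes and epithelial cells under inflammatory signals.

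The C1q genes lie side by side on the minus strand of chromosome 4 (mm10), C1qb from 136880145 to 136886178, C1qc from 136889802 to 136892915 and C1qa from 136895916 to 136898845, with gaps of 3624 and 3001 bp. C4b (chromosome 17, 34728381 to 34743898) and Cfb (chromosome 17, 34856374 to 34862515) lie in the MHC region, where both Cfb and C2 are on the minus strand with the start of Cfb 87 bp from the end of C2, and C4b is separated from its near copy C4a by 65194 bp. C3 lies elsewhere on chromosome 17, from 57203967 to 57228137. C1ra is on chromosome 6 from 124512621 to 124523441, 6903 bp from C1s1, C3ar1 on chromosome 6 from 122847140 to 122856158, and Serping1 on chromosome 2 from 84765360 to 84775430.

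Promoter sequences from RefSeq on GRCm38.p6 were at hand for 5 of the 9 genes, C1qb, C1qc, C3ar1, C1ra and C3. Those of C1qb and C1qc are shown because the ratio of these neighbours had the narrowest range of all pairs described below. That of C3 is shown because it is among the most abundant members. Each runs from 250 bases before the annotated start to 20 bases after it, all on the minus strand, at chr4:136886181-136886450, chr4:136892895-136893164 and chr17:57228117-57228386. Capitals mark GAGGAA, the core of sites bound by the myeloid factor PU.1, or its reverse complement, and TATAAA, the letters of a TATA box.
C1qb: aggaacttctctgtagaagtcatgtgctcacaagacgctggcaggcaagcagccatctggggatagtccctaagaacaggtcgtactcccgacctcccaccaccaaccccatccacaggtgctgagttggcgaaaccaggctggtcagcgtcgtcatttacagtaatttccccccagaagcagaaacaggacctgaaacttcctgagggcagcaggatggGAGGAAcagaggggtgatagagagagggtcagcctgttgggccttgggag
C1qc: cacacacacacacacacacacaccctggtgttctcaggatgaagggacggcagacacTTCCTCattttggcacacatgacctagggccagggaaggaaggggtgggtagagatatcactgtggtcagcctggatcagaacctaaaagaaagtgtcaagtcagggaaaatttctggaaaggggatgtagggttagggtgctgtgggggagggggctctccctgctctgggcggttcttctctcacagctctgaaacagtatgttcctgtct
C3: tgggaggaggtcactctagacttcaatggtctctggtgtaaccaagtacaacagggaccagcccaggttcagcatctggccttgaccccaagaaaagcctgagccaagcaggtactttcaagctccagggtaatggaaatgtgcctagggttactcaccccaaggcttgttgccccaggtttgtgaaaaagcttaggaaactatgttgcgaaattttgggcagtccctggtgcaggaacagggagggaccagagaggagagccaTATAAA
In the full windows of 300 bases, searched on both strands, GAGGAA was present in C1qb, C1qc and C1ra, that is in 3 of the 5, and in 28.3% of 32851 mouse promoters. TATAAA was present in C3, where it began at position 15 after the annotated start, and in C3ar1, where it began at position -235, neither of them the usual place of a TATA box shortly before the start, and in 13.6% of all promoters. The interferon-gamma motif TTCNNNGAA, which reads the same on both strands, was found in C1ra alone and in 8.3% of all promoters. Neither the interferon motif GAAANNGAA nor the NF-kB motif GGGANTTTC occurred in these 5 windows, against 8.56% and 1.11% of all promoters. GAAANNGAA and GAGGAA can overlap. These matches describe letters only and were not tested for binding.

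Counts stood behind these values at very different depths. Library totals ranged from 12314368 to 24441522 in control and from 8468914 to 13696665 in SS tumors, and levels are given as CPM, counts scaled to the library total with TMM factors. A gene at 0 could hold up to 3 counts, or from 0.123 to 0.354 CPM before that scaling. C3 and C4b had at least 1434 counts in each tumor, while C1qc had from 13 to 51, and intervals on counts cover counting error only. Markers of other tissues differed between tumors. Adipocyte markers, 7 of 8 in the table, summed to 204, 29.1 and 13.7 CPM in control tumors 1, 2 and 3 and to 109, 114 and 56.0 CPM in SS tumors 1, 2 and 3, and the muscle myosin Myh4 ran from 126 to 8906 CPM over the 6 tumors. Macrophage RNA was present in every tumor, with all 11 markers found of 12 above 0 throughout and a sum from 1023 to 1312 CPM in control and from 1066 to 1310 CPM in SS tumors. Epithelial Krt8 was between 417 and 544 CPM in all 6, but Krt5 was at 73.1, 1.13 and 1.44 CPM in the controls and at 33.9, 26.7 and 0 CPM with SS. The epithelial score, a mean log2 CPM over the 7 markers, was 5.43, 3.28 and 2.82 in the controls and 4.59, 5.38 and 3.04 with SS. Of 6 liver genes only Fgb had a row, with 1.19 CPM in control tumor 1 and 0 elsewhere. B2m, which nearly all cells express strongly, was at only 1.66 to 3.85 CPM in the 6 libraries, and some genes that macrophages usually express strongly were low as well, Tyrobp at 0.338 to 1.81, Fcer1g at 1.11 to 2.42 and Cst3 at 1.03 to 1.89 CPM, beside Csf1r at 322 to 448 CPM. Differences between genes in level are given per length, which does not correct such low values, and are therefore read with caution. Level per kilobase still fell with transcript length and with mean exon length over the tested genes (Spearman correlations -0.163 and -0.248).

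Per kilobase of transcript, C4b, C3 and C1ra stood highest in the control tumors. Their levels were 36.6 ± 12.7, 30.5 ± 11.4 and 20.2 ± 2.65 CPM per kb (SD, n = 3), and in SS tumors C3 came first with 38.5 ± 8.78, before C4b with 29.1 ± 4.09 and C1ra with 21.2 ± 1.94 CPM per kb. The gap between C4b and C3 was within 1 SD in the control tumors, and in the SS tumors it was somewhat larger than either SD. Next in the control tumors came C1qb at 9.13 ± 2.5, Serping1 at 6.69 ± 0.693, C1qa at 6.41 ± 0.701 and C3ar1 at 5.47 ± 1.49 CPM per kb, and neighbours in this row lay within a spread of each other. C1qc, at 1.54 ± 0.549, and Cfb, at 1.21 ± 0.566 CPM per kb, were lowest. In the SS tumors C1qb and C1qa followed at 9.70 and 8.09, then Serping1 and C3ar1 at 4.42 and 4.08, and Cfb at 2.40 stood above C1qc at 1.73 CPM per kb. Over 10624 tested genes with a known length, C3 sat at the 86.2th and Cfb at the 29.4th percentile of this level, and C1qa and C1qb, at the 58th and 63.6th, stood well above C1qc at the 27.8th.

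**Figure D1:**
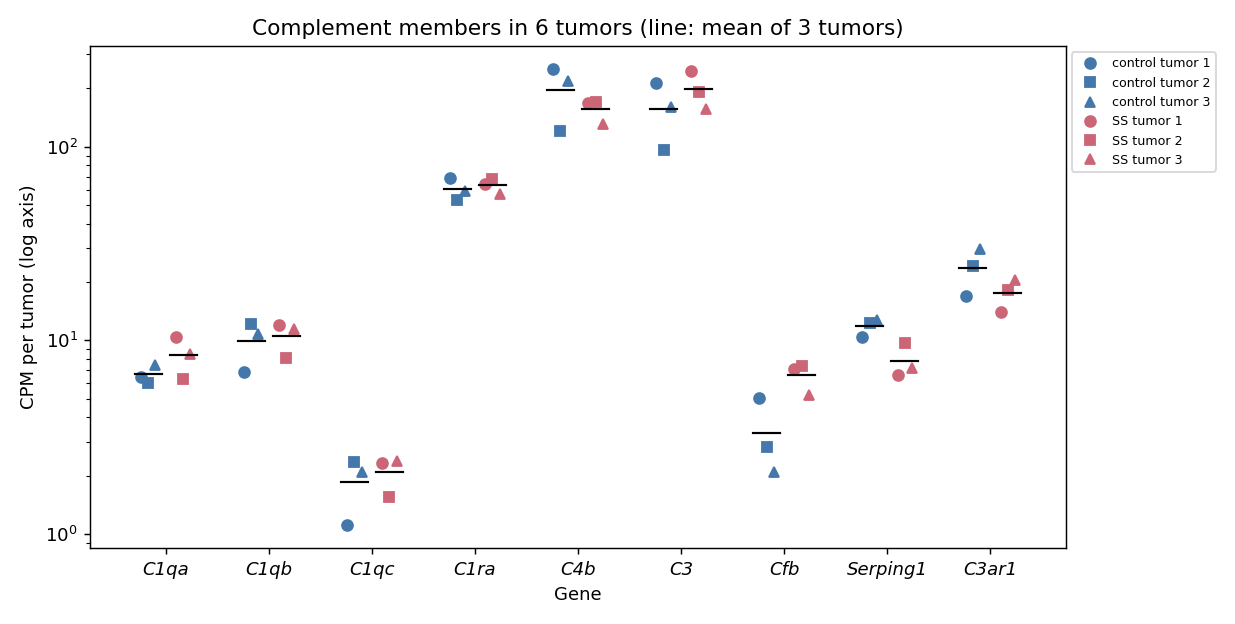
CPM of the 9 complement genes in each tumor on a log axis, with control tumors in blue, SS tumors in red, 1 symbol per replicate number and a line at the mean of 3 tumors. Groups were apart for Cfb, with every SS tumor above, and for Serping1, with every SS tumor below, and overlapped for the other 7 genes.

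The comparison asked whether SS changed complement RNA in these tumors. None of the 9 genes passed edgeR's quasi-likelihood test after Benjamini-Hochberg adjustment, where 0.0% of the 10902 genes did, and their adjusted p lay between 0.771 and 0.966. The largest differences were in Cfb, 2.00-fold higher, and in Serping1, 1.52-fold higher in the control tumors. These were also the only members at an unadjusted p under 0.05, 1 of 9 in each direction, against 3.19% of all genes higher and 3.16% lower. Both were the only members whose groups did not overlap, where every SS tumor was above in 6.51% and below in 6.4% of all genes. The median log2 fold change of the members was 0.086, with 6 above 0 and 3 below, and that of all genes tested was -0.0013. Since whole tumors were sequenced, fewer cells of a type and less RNA per cell cannot be told apart in any of these values.

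Cfb, the factor B of the alternative pathway, was at 5.06, 2.80 and 2.09 CPM in control tumors 1, 2 and 3, and at 7.11, 7.39 and 5.24 CPM in SS tumors 1, 2 and 3. All SS tumors were above all controls, though SS tumor 3 exceeded control tumor 1 by little. The log2 fold change was 1.00 ± 0.39 (SE) (unadjusted p = 0.0344, adjusted p = 0.771 by edgeR), and the exact two-sided permutation p was 0.1, the smallest that 3 against 3 tumors allow. Control tumor 1, highest of the controls for Cfb, also had the highest sum of adipocyte markers. Without it the log2 fold change was 1.42, and with an adipocyte marker score as a covariate it was 0.82 (standard error 0.288). With a macrophage marker score as covariate it was 1.21. Leaving out control tumor 2, control tumor 3, SS tumor 1 or SS tumor 2 took its unadjusted p to between 0.0843 and 0.0992 in edgeR. The counts were small, from 51 to 98 per tumor.

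Cfb was deposited as 2 transcripts with the same ends, and in 5 of the tumors all counts rounded to the first of them. In SS tumor 2, 21 of 62 counts, or 33.9% (95% exact binomial interval 22.3 to 47.0), were assigned to the second. The transcripts are 2737 and 2733 nt long, and few reads may tell them apart. Counts are estimates shared out between them, so the interval covers counting error only and may be too narrow. The other tumors had 0 counts of the second transcript after rounding. The upper limit of the same interval was at most 6.98%, in the tumor with the fewest Cfb counts, and may be too low for the same reason. The sum over both transcripts, used above, does not depend on that assignment.

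Serping1, the gene of the C1 inhibitor, was at 10.4, 12.3 and 12.7 CPM in the controls, against 6.60, 9.66 and 7.18 CPM with SS. SS tumor 2 came close to control tumor 1, and no SS tumor reached a control. Its log2 fold change was -0.61 ± 0.22 (SE) (unadjusted p = 0.0271, adjusted p = 0.771 by edgeR), and the exact two-sided permutation p was again 0.1. With one tumor left out it lay between -0.78 (SS tumor 2) and -0.50 (SS tumor 1), and its unadjusted p in edgeR rose to between 0.0704 and 0.0805 without control tumor 2, control tumor 3, SS tumor 1 or SS tumor 3. With the macrophage score as covariate it was -0.49 (unadjusted p = 0.0891 in edgeR), and with the adipocyte score -0.57 (unadjusted p = 0.0544 in edgeR).

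The chains of C1q gave no difference beyond the spread between tumors. C1qa was at 6.48, 6.05 and 7.47 CPM in the controls, against 10.4, 6.32 and 8.54 CPM with SS, so that SS tumors 1 and 3 exceeded all controls and SS tumor 2 lay among them. C1qb was at 6.88, 12.1 and 10.8 CPM in the controls, against 12.0, 8.11 and 11.5 CPM with SS. C1qc, the lowest chain, was at 1.11, 2.36 and 2.09 CPM in the controls, against 2.32, 1.55 and 2.37 CPM with SS. For C1qb and C1qc, control tumor 1 and SS tumor 2 were the lowest of the 6. The log2 fold changes were 0.34, 0.086 and 0.16 with standard errors of 0.26, 0.27 and 0.46, and the adjusted p by edgeR was 0.870, 0.966 and 0.957. Sums over the chains were 14.5, 20.5 and 20.4 CPM in the controls, against 24.7, 16.0 and 22.4 CPM with SS. The log2 of this sum minus the macrophage marker score was -0.83, -0.28 and -0.50 in the controls, against -0.37, -0.68 and -0.41 in the SS tumors, which overlap. That score itself, the mean log2 CPM of 11 genes, was 4.68, 4.64 and 4.85 in the controls, against 5.0, 4.68 and 4.90 in the SS tumors. With it as a covariate the log2 fold change of C1qa came to 0.050, and with one tumor left out it lay between 0.16 (SS tumor 1) and 0.50 (SS tumor 2).

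Within a tumor, the ratio of C1qc to C1qb varied less than either gene. The ratio of their CPM was 0.161, 0.195 and 0.193 in the controls, against 0.193, 0.191 and 0.206 in the SS tumors, a range of 1.28-fold, although C1qb itself varied 1.76-fold. C1qc had only 13 to 51 counts in a tumor. Counting error is of similar size to that range, so a constant proportion cannot be shown. C1qb to C1qa was less even, at 1.06, 2.00 and 1.45 in the controls, against 1.16, 1.28 and 1.35 in the SS tumors. The exact two-sided permutation p was 0.6 for C1qc to C1qb and 0.5 for C1qb to C1qa. These and the ratios that follow were formed after the values had been seen, so their p-values are descriptive only.

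Of the proteases that act with C1q, C1ra was the steadiest member, varying 1.30-fold over the 6 tumors. It was at 68.7, 53.0 and 59.3 CPM in the controls, against 64.4, 68.3 and 57.0 CPM with SS, with a log2 fold change of 0.068 and a standard error of 0.14 (adjusted p = 0.940 by edgeR). C1s1, its partner protease on the same chromosome, was at 11.5, 12.0 and 20.1 CPM in the controls, against 16.5, 18.5 and 15.2 CPM with SS. Serping1, which blocks both proteases, stood to C1ra at 0.152, 0.233 and 0.215 in the controls, against 0.103, 0.141 and 0.126 in the SS tumors, where the highest SS tumor lay just under the lowest control. The exact two-sided permutation p of this ratio was 0.1, the smallest possible here, and among single genes every SS tumor was below in 6.4%. Part of the C1ra counts in control tumors 1 and 3 were fractions, a sign that reads had been shared out between similar transcripts.

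C4b, the target of the C1 proteases, was at 253, 120 and 218 CPM in the controls, against 168, 171 and 131 CPM with SS. The control tumors spread on both sides of the SS tumors, and the log2 fold change was -0.33 ± 0.26 (SE) (adjusted p = 0.876 by edgeR). It was -0.11 without control tumor 1, -0.59 without control tumor 2 (unadjusted p = 0.00723, adjusted p = 0.924 by edgeR) and -0.22 without SS tumor 3, and limma-voom with sample weights gave -0.19. C4a, a near copy of C4b with which it can exchange reads, was at 1.34, 0 and 0.575 CPM in the controls, against 2.98, 0.477 and 3.80 CPM with SS, so its value and a small part of that of C4b are uncertain. C2, which joins C4 in the convertase, was at 2.85, 3.34 and 4.39 CPM in the controls, against 1.09, 3.34 and 2.37 CPM with SS.

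C3, the component on which all routes converge, was at 214, 96.6 and 160 CPM in the controls, against 246, 192 and 156 CPM with SS. The groups overlapped, since control tumor 1 exceeded SS tumors 2 and 3, and the log2 fold change was 0.34 ± 0.29 (SE) (adjusted p = 0.890 by edgeR). It was 0.63 without control tumor 1 (unadjusted p = 0.0459, adjusted p = 0.629 by edgeR), 0.083 without control tumor 2 and 0.15 without SS tumor 1. The 3 tumors with the most C3, SS tumor 1, control tumor 1 and SS tumor 2, were also those with the largest sums of adipocyte markers and of epithelial markers, the latter at 705, 931 and 918 CPM against 505 to 672 CPM in the other 3. The part of epithelial cells in C3 was not tested. With the adipocyte score as covariate the log2 fold change of C3 was 0.20 (standard error 0.237). The ratio of C3 to C4b was 0.847, 0.802 and 0.733 in the controls, against 1.46, 1.12 and 1.19 in the SS tumors without overlap, although the groups overlapped for either gene alone. This ratio was picked after the values had been seen, and its exact two-sided permutation p was 0.1, the smallest possible here. Among single genes every SS tumor was above in 6.51%, and the share among ratios was not counted.

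**Figure D2:**
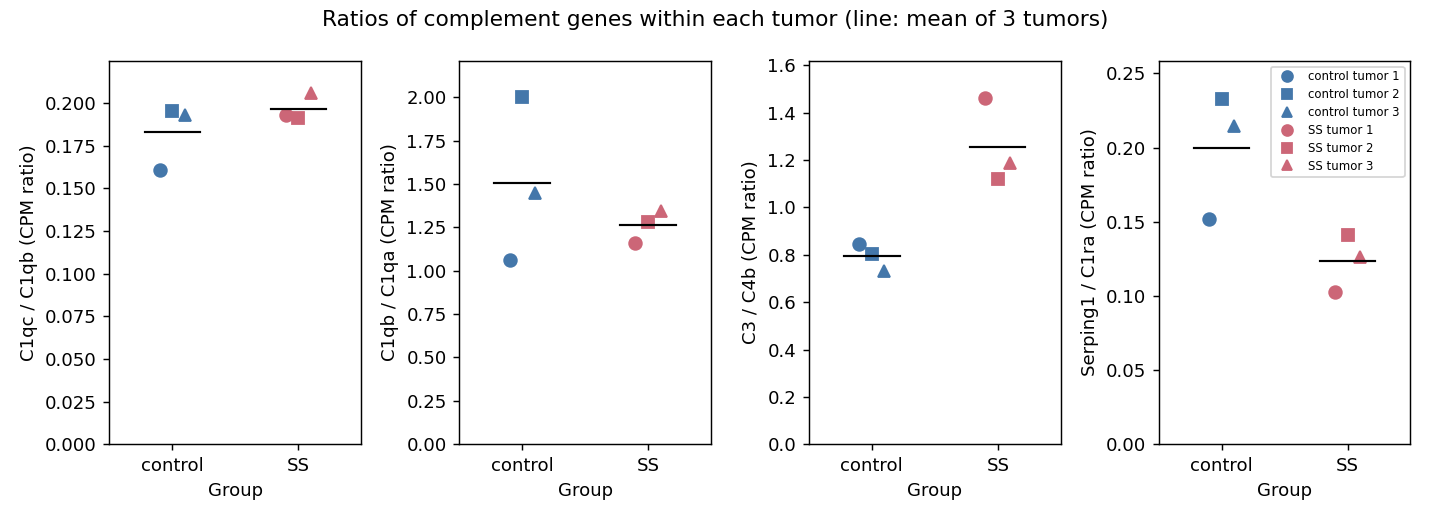
Ratios of CPM between pairs of complement genes within each tumor, with axes from 0, control tumors in blue, SS tumors in red and a line at the mean of 3 tumors. C1qc to C1qb stayed between 0.161 and 0.206, while C3 to C4b was at most 0.847 in control and at least 1.12 in SS tumors. The ratios were formed after the values had been seen.

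C3ar1, the receptor for C3a on myeloid cells, was at 16.8, 24.2 and 29.6 CPM in the controls, against 13.9, 18.2 and 20.5 CPM with SS. Its mean was lower in the SS group, but control tumor 1 lay among the SS tumors. The log2 fold change was -0.43 ± 0.25 (SE) (unadjusted p = 0.124, adjusted p = 0.818 by edgeR). It was -0.62 without control tumor 1 (unadjusted p = 0.0247 in edgeR), and between -0.28 and -0.23 without control tumor 3, without SS tumor 1 or with the adipocyte score as covariate. Relative to the macrophage score on the log2 scale, C3ar1 was at -0.60, -0.036 and 0.043 in the controls, against -1.19, -0.48 and -0.53 in the SS tumors.

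Beyond the members, a list of 52 other complement genes was followed, of which 25 had a row in the table and 18 were tested. None had an adjusted p under 0.05 by edgeR, and 1 of the 18 was higher and 1 lower at an unadjusted p under 0.05, beside 3.19% and 3.16% of all genes. Their median log2 fold change was 0.068. The one higher was Itgax, the alpha chain of complement receptor 4 (CD11c), at 66.9, 49.4 and 50.9 CPM in the controls, against 173, 131 and 89.6 CPM with SS, a log2 fold change of 1.24 ± 0.24 (SE) (adjusted p = 0.679 by edgeR, 0.000278 by DESeq2). Its partner chain Itgb2 was at 0.035 and Itgam, the alpha chain of complement receptor 3, at -0.26 on the log2 scale (SE 0.17 and 0.34). The one lower was Clu, the fluid-phase regulator clusterin, at 8.06, 15.6 and 14.4 CPM in the controls, against 7.84, 6.80 and 8.28 CPM with SS, where control tumor 1 lay among the SS tumors. The log2 fold change of Clu was -0.73 ± 0.28 (SE) (unadjusted p = 0.0311, adjusted p = 0.771 by edgeR). In edgeR the unadjusted p of Clu was 0.00268 without control tumor 1, between 0.0524 and 0.115 without any one of the other 5 tumors, 0.0591 with the replicate number as a block and 0.0619 with the adipocyte score as covariate, and the study's route of quantile normalization gave 0.122.

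In the alternative pathway, properdin (Cfp), which holds the convertase together, was at 43.5, 53.3 and 47.0 CPM in the controls, against 64.2, 49.7 and 53.8 CPM with SS, and Cfd, the adipocyte-made protease that cuts factor B, had 0.949 CPM in control tumor 1, 0.477 CPM in SS tumor 2 and 0 elsewhere. All 3 tested genes of this branch, C3, Cfb and Cfp, had log2 fold changes above 0, with a median of 0.34, beside 5433 of 10902 over all genes tested. Of them only Cfb had an unadjusted p under 0.05 in edgeR, with 0.272 for C3 and 0.152 for Cfp. Of the lectin pathway, the protease gene Masp1 and the scavenger collectin Colec12 had log2 fold changes of 0.12 and -0.12, with standard errors of 0.35 and 0.39. Of the terminal components, C6 was between 0.790 and 3.0 CPM, from 10 to 73 counts in a tumor, and Hc, the gene of C5, was between 0 and 1.74 CPM and was not tested. Among the membrane regulators Cd55 and Susd4 were at most 2.27 CPM in any tumor. The C5a receptor C5ar1 was between 0.711 and 1.92 CPM. C1qbp, which binds the globular heads of C1q, was at 41.7, 43.1 and 42.2 CPM in the controls, against 34.8, 38.9 and 33.9 CPM with SS without overlap (log2 fold change -0.24, standard error 0.12, adjusted p = 0.792 by edgeR).

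**Figure D3:**
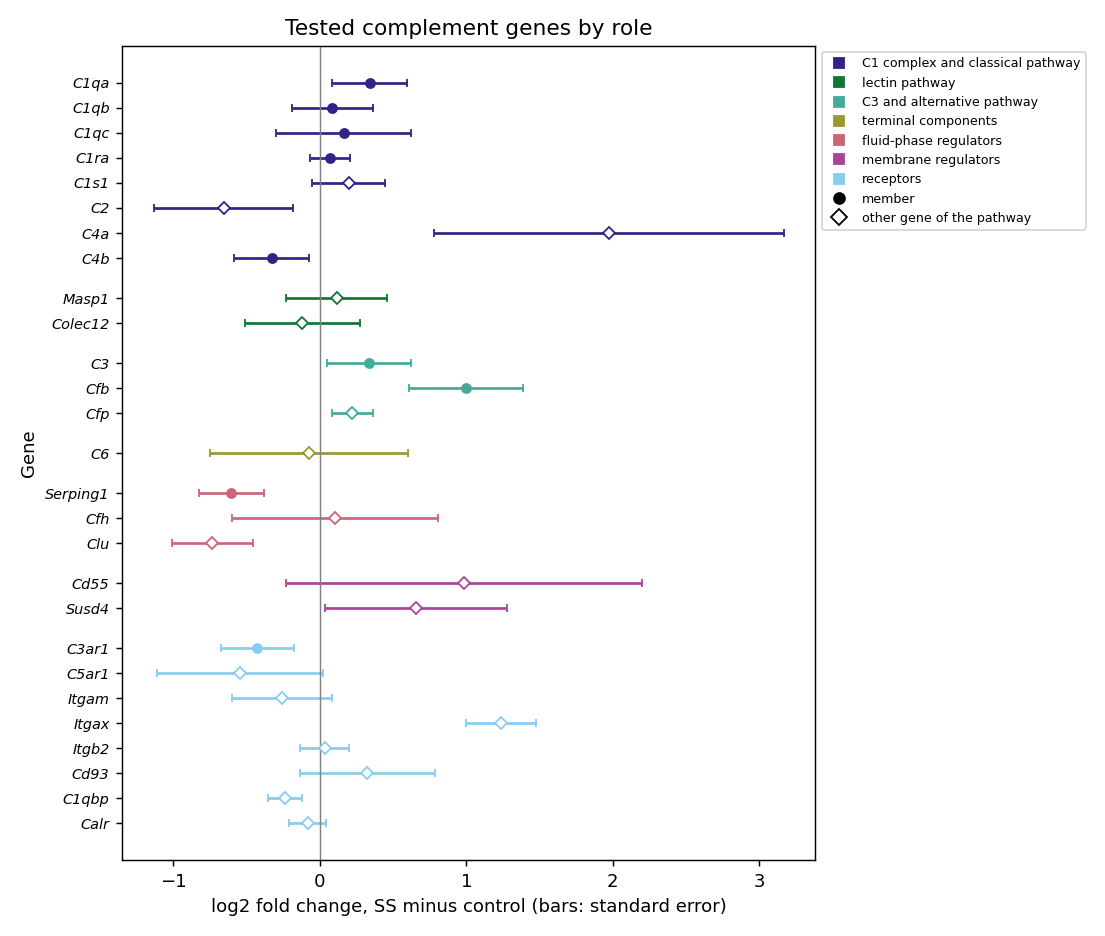
Log2 fold change, SS minus control, of the 27 tested complement genes grouped by role, with bars for 1 standard error, filled circles for members and open diamonds for other genes of the pathway. Cfb and Itgax lie to the right and Serping1, Clu and C1qbp to the left of 0 by more than 2 standard errors, and C4a and Cd55, at up to 3.80 and 1.52 CPM, have the widest bars.

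Complement genes are among those that interferon-gamma and NF-kB can induce, so lists of both responses were set beside them. Over all genes tested, 5433 of 10902 had log2 fold changes above 0, and 3.19% were higher and 3.16% lower at an unadjusted p under 0.05. Of 8 tested genes of the interferon-gamma list, 7 had log2 fold changes above 0, with a median of 0.23, and 2 were higher at an unadjusted p under 0.05, the GTPase genes Gbp2 and Gbp3. Of 8 tested genes of the NF-kB and acute phase list, 6 were below 0, with a median of -0.15, and 1 was higher at an unadjusted p under 0.05, the acute phase gene Saa3, at 7.55, 65.0 and 59.5 CPM in SS tumors 1, 2 and 3 against 10.4 to 14.8 CPM in the control tumors. In the macrophage list 8 of 11 were above 0, with a median of 0.11, and Cd14 was lower at an unadjusted p under 0.05. Among 7 tested fibroblast markers 6 were below 0, with a median of -0.27, and 3 of 4 adipocyte markers were above 0, with a median of 0.22. Of the dendritic cell list 8 of 10 genes were in the table, and 3 of 5 tested were above 0, with a median of 0.65 and 1 higher at an unadjusted p under 0.05, Itgax. The sum of this list was 88.2, 53.5 and 55.8 CPM in the controls, against 188, 143 and 97.4 CPM with SS, without overlap, and most of it in every tumor was Itgax, while Batf3, Ccr7, Clec10a and Zbtb46 overlapped between the groups. Of 7 epithelial markers 4 were below 0, with a median of -0.083, and the keratin gene Krt18 was lower at an unadjusted p under 0.05, at 91.8, 98.1 and 80.4 CPM in the controls, against 70.0, 59.5 and 61.9 CPM with SS. Lymphocyte markers, 3 of 8 in the table, summed to 48.8, 12.6 and 8.04 CPM in the controls and 20.8, 12.6 and 4.31 CPM with SS. By edgeR, none of the genes in these lists passed adjustment, and the part of these cell types and signals in the complement values was not tested beyond the covariates given above.

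As a description of pattern, genes with a mean of at least 10 CPM were ranked by the Pearson correlation of their log2 CPM with each of 4 profiles over the 6 tumors. Closest to the sum of the C1q chains were Hip1, Stard3, Zfp260, Ift122 and Alox15, with r from 0.979 to 0.991. For C3 the first were Rnf19b, Lsg1, Zmynd11, Inpp5d and Pnn (0.960 to 0.986), for C4b Gm13363, Clock, Sec23b, Rnf2 and Polr1a (0.966 to 0.993), and for Serping1 Eif2s2, Sypl, Hsd17b10, Cct2 and Dag1 (0.974 to 0.996). Among 6282 candidates, between 35 and 76 exceeded 0.9 for a profile. With only 6 tumors and so many candidates, correlations of this size also arise between unrelated genes. The named genes are therefore not read as partners of the complement genes, and how many would exceed 0.9 without any relation was not tested.

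**Figure D4:**
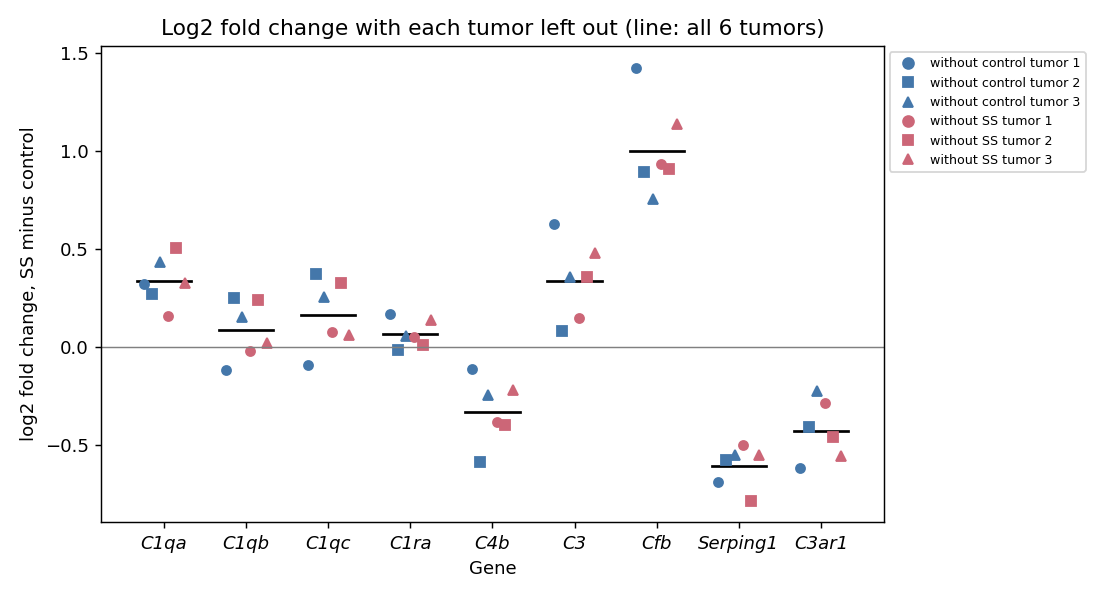
Log2 fold change of the 9 members with each tumor left out in turn (symbols, blue for control and red for SS tumors) and with all 6 tumors (black line). Cfb stayed between 0.75 and 1.42 and Serping1 between -0.78 and -0.50, while C1qb, C1qc and C1ra crossed 0.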

How the data were processed

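RNA of 6 tumors, 3 control and 3 SS, was sequenced by the authors from stranded polyA libraries (paired reads, 75 nt). Estimated counts were deposited by them for 20648 RefSeq transcripts, not normalized, after removal of entries with very low counts; each transcript had at least 10 counts over the 6 tumors. The submitters' processing notes name CASAVA 1.8.1, Bowtie2 2.2.5, STAR 2.5.3a and mm10, without their roles, and the counting tool was not given in the sources used here. The study's methods name quantile normalization and a t statistic.

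Counts were summed by gene symbol, with 21 symbols stored as dates restored from accessions, and rounded. edgeR 4.0.16 in R 4.3.3 was used with TMM scaling (factors 0.981 to 1.029), filterByExpr and the quasi-likelihood test, and p-values were adjusted by Benjamini-Hochberg across the 10902 genes tested. Each standard error (SE) was derived from the log2 fold change and its F statistic. The labels do not say that replicates came from separate mice, so p-values measure only the spread between these samples. Replicates of a group differed in tissue markers (Myh4 from 126 to 4665 CPM in the controls), and whether they are mice or pieces of tumor was not given. Scores are mean log2 CPM with a prior count of 2. Lengths came from GENCODE transcripts matched by accession, and promoters from RefSeq. The fits were also run on simulated counts with known changes, and the outcome is not used here. The members and lists were chosen with earlier results of these data known. All 9 members are named, and other complement genes by role, with every one at an unadjusted p under 0.05. Alternatives were RLE and upper-quartile scaling, DESeq2 1.42.0, limma-voom 3.58.1 with sample weights, the study's route, other filters, a replicate block, a macrophage covariate and leaving out each tumor; the adipocyte covariate was chosen after seeing the data.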

Additional observations from a re-analysis of the deposited data

How the results depend on the processing

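No member passed adjustment in any of the 16 alternatives, though DESeq2 gave no adjusted p for C1qa, C1qb, C1qc, Cfb and Serping1. Over all genes the count at an adjusted p under 0.05 was 0 by edgeR, with 693 at an unadjusted p under 0.05, and 35 with DESeq2; the cause was not tested. The 2 members at an unadjusted p under 0.05 became 1 with the macrophage score or with the adipocyte score as covariate, and from 0 to 4 with one tumor left out (4 without control tumor 1, where C3 and C3ar1 joined, and 0 without control tumor 3 or SS tumor 1). Of complement genes, the 2 higher became from 1 to 3, and the 2 lower from 0 to 3, with one tumor left out, and the 2 lower became 1 with the macrophage and 0 with the adipocyte covariate. C1qb turned to -0.11 and C1qc to -0.053 with the macrophage covariate, and C1ra to -0.0018 with the adipocyte covariate, which moved C1qb to 0.27 and C1qc to 0.43. With one tumor left out C1qa ran from 0.16 to 0.50, C1qb from -0.12 to 0.25, C1qc from -0.091 to 0.37 and C1ra from -0.017 to 0.17. The signs of C1qa, C3, C4b, Cfb, Serping1 and C3ar1 did not turn in these alternatives. With a tumor left out, the group of 2 is assumed to vary like the other.

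Same-numbered tumors share only a number: correlations of their deviations from each group's mean were 0.116, 0.0205 and 0.0767, and not every tumor correlated best with its own number. With the replicate block edgeR gave 0 genes after adjustment and 643 before it, 479 of them among the 693, and 3 members at an unadjusted p under 0.05 (C3ar1 joined). In complement genes the block gave 3 higher (C4a joined Cfb and Itgax) and 2 lower in edgeR, with Clu (unadjusted p = 0.0591) no longer among the lower and C3ar1 (unadjusted p = 0.0473) in its place.

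Among the 9 members, the standard error was largest for C1qc, with 13 to 51 counts in a tumor.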
